A study of Mus musculus with 19 samples.

Results

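The genes described here are 8 adipokines, hormones and other proteins that fat tissue releases into the blood: Lep, Adipoq, Retn, Cfd, Rbp4, Nampt, Apln and Rarres2. They were taken by gene symbol from the expression table of mouse epididymal white adipose tissue (eWAT), in which they are 8 of 24237 genes. The tissue came from adult male C57BL6/J mice that were fed 1 of 4 diets for 17 weeks. Mice on the normal Mg2+, low-fat diet (NormMg-LFD, n = 4) were compared with mice on the low Mg2+, low-fat diet (LowMg-LFD, n = 5), the normal Mg2+, high-fat diet (NormMg-HFD, n = 5) and the low Mg2+, high-fat diet (LowMg-HFD, n = 5). The design asks how dietary Mg2+ changes fat tissue on each level of fat, and how fat changes it at each level of Mg2+. All values are from whole tissue and 1 library per mouse, so that fewer cells of a type and less RNA per cell cannot be told apart.

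Adipokines carry information on the state of the fat stores to the brain, liver, muscle, vessels and immune cells. Leptin (Lep) is made in proportion to fat mass and restrains appetite, whereas adiponectin (Adipoq) is made in large amounts by lean fat tissue and sensitises liver and muscle to insulin. Resistin (Retn) and retinol-binding protein 4 (Rbp4, the carrier of vitamin A) have been linked to insulin resistance in mice, and adipsin (Cfd) is complement factor D, the protease that starts the alternative complement pathway. Apelin (Apln) is a peptide that acts on vessels and heart, chemerin (Rarres2) draws macrophages and dendritic cells, and visfatin (Nampt) is the rate-limiting enzyme of NAD salvage, which is also secreted.

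Each mouse had between 12986441 and 13027028 reads, of which 86.12% to 90.41% were mapped. Adipocyte markers were abundant in every mouse, with a summed FPKM over 12 genes (fragments per kilobase of transcript, scaled to the mapped reads of the library) of 14950 to 25142. Among the low-fat mice, 2 libraries stood apart from the others by genes of a neighbouring organ. Exocrine pancreas genes summed to 2066 FPKM in NormMg-LFD replicate 3, with all 18 genes above 0, against 13.9 to 62.2 FPKM in the other 18 mice. Epididymis genes summed to 146 FPKM in LowMg-LFD replicate 4, with all 11 genes above 0, against at most 5.13 FPKM elsewhere. The study left out a LowMg-HFD mouse for pancreatic tissue, and the labels do not name that mouse. Exocrine pancreas genes summed to 24.5 to 51.5 FPKM in the 5 libraries labelled LowMg-HFD, so that none of these stood apart by them, and the library that did is labelled NormMg-LFD. In that library Lep was at 313 FPKM, Cfd at 7899 FPKM and the summed macrophage markers at 737 FPKM, each within the range of the low-fat groups and outside that of the high-fat groups. Without LowMg-HFD replicate 4, and with a filter at log2(FPKM + 1) over 3, 8808 genes were tested in 18 mice. The study also kept 8808 transcripts. A matching count is not a label, so that this mouse stays in the main results. The groups are those of the labels throughout. Results of the 8 adipokines that use low-fat diet mice are therefore also given for the 17 mice without the 2 libraries that stood apart, and counts of the other gene lists in those mice are given after them.

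The promoters of the 4 adipokines on which the results turn most, Lep, Adipoq, Retn and Cfd, are given as the 120 bases before the transcription start (RefSeq, GRCm38.p6, 5′ to 3′ on the strand of the gene, which is the plus strand for each). Capitals mark the letters of 4 motifs, which were searched on both strands. The first is TTGCGCAA, an ideal site for the C/EBP factors that drive adipocyte genes. The second is CCAAT, a site found in many promoters. The GC box is GGGCGG, and the core of the TATA box is TATAA. The windows are chr6:29060101-29060220 for Lep, chr16:23146416-23146535 for Adipoq, chr8:3655650-3655769 for Retn and chr10:79890733-79890852 for Cfd.
Lep: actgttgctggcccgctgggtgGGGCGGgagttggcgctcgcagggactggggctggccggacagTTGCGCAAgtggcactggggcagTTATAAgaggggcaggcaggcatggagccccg
Adipoq: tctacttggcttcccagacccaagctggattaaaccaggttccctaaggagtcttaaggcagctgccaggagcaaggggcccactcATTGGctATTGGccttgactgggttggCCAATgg
Retn: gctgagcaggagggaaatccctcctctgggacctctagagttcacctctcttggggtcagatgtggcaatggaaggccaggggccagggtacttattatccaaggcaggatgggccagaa
Cfd: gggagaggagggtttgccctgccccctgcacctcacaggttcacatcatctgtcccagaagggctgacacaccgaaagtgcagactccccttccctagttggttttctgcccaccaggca

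The Lep window held TTGCGCAA from 55 to 48 bases before the start, letters that read the same on both strands and that occur in 0.0822% of 32851 promoter windows of this length. It also held 1 GGGCGG and TATAA on both strands, which overlap in the letters TTATAA. The Adipoq window held CCAAT 3 times, a motif found in 21.3% of the windows. Neither the Retn nor the Cfd window held any of the 4 motifs, of which GGGCGG occurs in 26.5% and TATAA in 11.8% of all windows. Among the other members, Nampt had 4 GGGCGG and Rbp4 had 2 GGGCGG and 1 TATAA before the first of its 2 starts, while Apln had none of the 4. These matches describe letters alone.

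Levels, which FPKM allows to be set side by side between genes, spanned a wide range. Cfd ranged most widely, from 287 to 8766 FPKM in single mice and from rank 4 to rank 270 among all genes. It had the highest mean of the members on both low-fat diets, while Adipoq had the highest mean on both high-fat diets (1263 FPKM against 412 FPKM for Cfd on the NormMg-HFD). Adipoq spanned 1072 to 2569 FPKM and stayed between ranks 18 and 47 in every mouse. Retn (200 to 1489 FPKM), Lep (138 to 1285 FPKM), Rbp4 (229 to 828 FPKM) and Rarres2 (244 to 468 FPKM) formed a middle group. Nampt, with 17.5 to 35.7 FPKM, and Apln, with 3.00 to 11.3 FPKM, were far lower. All 8 members passed the filter on low values, a group mean over 8 FPKM with at least 4 mice of the group over 8. Apln passed it only through the LowMg-HFD group, where it is highest, so that counts over the members below are descriptions.

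Together the 8 genes held a mean of 1.97% ± 0.296 (SD, n = 4) of the summed FPKM on the NormMg-LFD and 2.18% ± 0.299 (SD, n = 5) on the LowMg-LFD. On the NormMg-HFD this share was 0.714% ± 0.131 (SD, n = 5), and on the LowMg-HFD it was 1.23% ± 0.272 (SD, n = 5). The lowest LowMg-HFD mouse had 0.977% and the highest NormMg-HFD mouse 0.928%, so that the 2 groups did not overlap. Cfd alone made up a mean of 1.09% of the summed FPKM on the NormMg-LFD and 0.0779% on the NormMg-HFD.

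**Figure D1:**
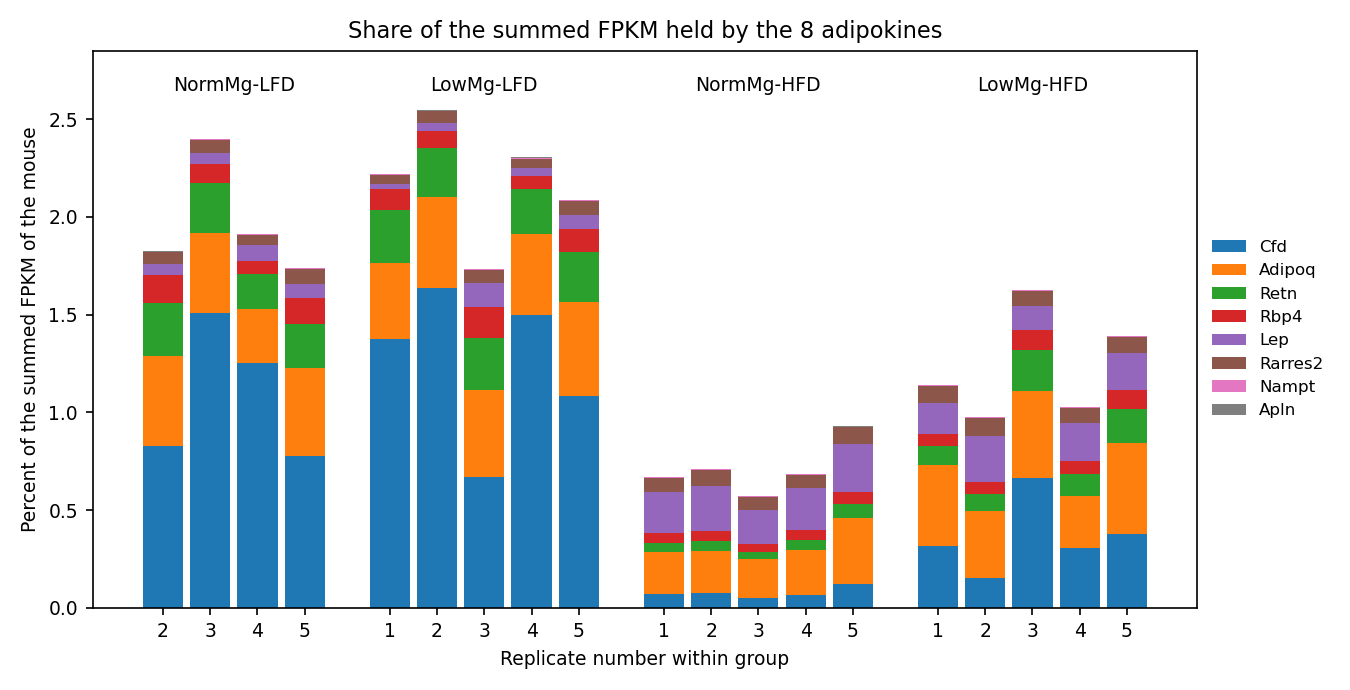
Share of the summed FPKM of each mouse (y axis, percent) held by each of the 8 adipokines, stacked, with 1 bar per mouse and the replicate number on the x axis. Bars reach 1.73% to 2.55% on the low-fat diets, 0.574% to 0.928% on the NormMg-HFD and 0.977% to 1.63% on the LowMg-HFD, and most of the difference lies in Cfd.

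Adiponectin transcripts were lowest in NormMg-HFD mice. Adipoq (chr16:23146536-23158028, plus strand, GRCm38) was at 2438, 2140.3, 1422 and 2414 FPKM in the 4 NormMg-LFD mice and at 2099, 2473, 2315, 2246 and 2569 FPKM in the 5 LowMg-LFD mice. The NormMg-HFD mice had 1117, 1131, 1072, 1217 and 1776 FPKM. The LowMg-HFD mice had 2169.7, 1776, 2373, 1451 and 2381 FPKM. Of the NormMg-HFD mice, 4 lay below every other mouse of the study, and the fifth overlapped the LowMg-HFD group.

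Resistin and adipsin showed the same order of group means with larger steps. Retn (chr8:3655770-3660110, plus strand) was at 1449, 1315, 929 and 1195 FPKM on the NormMg-LFD and at 1489, 1349.8, 1385, 1234 and 1364 FPKM on the LowMg-LFD. It was at 262, 276, 199.9, 262 and 369 FPKM on the NormMg-HFD and at 513, 451, 1117, 604 and 897 FPKM on the LowMg-HFD. Every LowMg-HFD mouse had more Retn than every NormMg-HFD mouse, and 1 of them, replicate 3, reached the low-fat diet range.

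Cfd (chr10:79890853-79892655, plus strand) was at 4385, 7899, 6492 and 4122 FPKM on the NormMg-LFD and at 7483, 8766, 3501, 8133 and 5779 FPKM on the LowMg-LFD. The NormMg-HFD mice had 378, 397, 287, 350.3 and 649 FPKM and the LowMg-HFD mice 1652, 806, 3539, 1667 and 1963 FPKM. The 2 high-fat groups did not overlap, and LowMg-HFD replicate 3, again the highest of its group, stood just above the lowest LowMg-LFD mouse.

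Rbp4 (chr19:38116629-38125281, minus strand) was at 757, 506, 336 and 692 FPKM on the NormMg-LFD and at 575, 455, 828, 374 and 638 FPKM on the LowMg-LFD. It was at 272, 263, 229, 259.8 and 333 FPKM on the NormMg-HFD and at 335, 334, 533, 377 and 519 FPKM on the LowMg-HFD. The gap between the highest NormMg-HFD mouse (332.61 FPKM) and the lowest LowMg-HFD mouse (334.46 FPKM) was narrow.

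Leptin transcripts followed the fat content of the diet. Lep (chr6:29060220-29073877, plus strand) was at 293, 313, 427 and 383 FPKM on the NormMg-LFD and at 138, 223, 644, 224 and 384 FPKM on the LowMg-LFD. It was at 1090.4, 1205, 960.3, 1148 and 1285 FPKM on the NormMg-HFD and at 835, 1226, 663, 1072 and 964 FPKM on the LowMg-HFD. The high-fat and low-fat mice did not overlap at either Mg2+ level, although LowMg-LFD replicate 3 (644 FPKM) came close to the lowest LowMg-HFD mouse (663 FPKM).

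Apelin and chemerin had their highest group means on the LowMg-HFD. Apln (chrX:48025146-48034853, minus strand) was at 5.80, 4.07, 5.96 and 3.97 FPKM on the NormMg-LFD and at 3.37, 3.40, 4.48, 3.48 and 3.0 FPKM on the LowMg-LFD. It was at 6.32, 10.6, 5.18, 6.49 and 6.32 FPKM on the NormMg-HFD and at 8.90, 9.46, 9.0, 7.85 and 11.3 FPKM on the LowMg-HFD. A single NormMg-HFD mouse, replicate 2, lay within the LowMg-HFD range. Rarres2 (chr6:48569696-48572789, minus strand) rose less steeply, from a mean of 311 ± 57.6 FPKM (SD, n = 5) on the LowMg-LFD to 435 ± 24.4 FPKM (SD, n = 5) on the LowMg-HFD. Nampt (chr12:32819545-32853349, plus strand) had the flattest group means, between 20.0 ± 1.32 FPKM (SD, n = 5) on the LowMg-HFD and 26.2 ± 5.49 FPKM (SD, n = 5) on the LowMg-LFD.

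**Figure D2:**
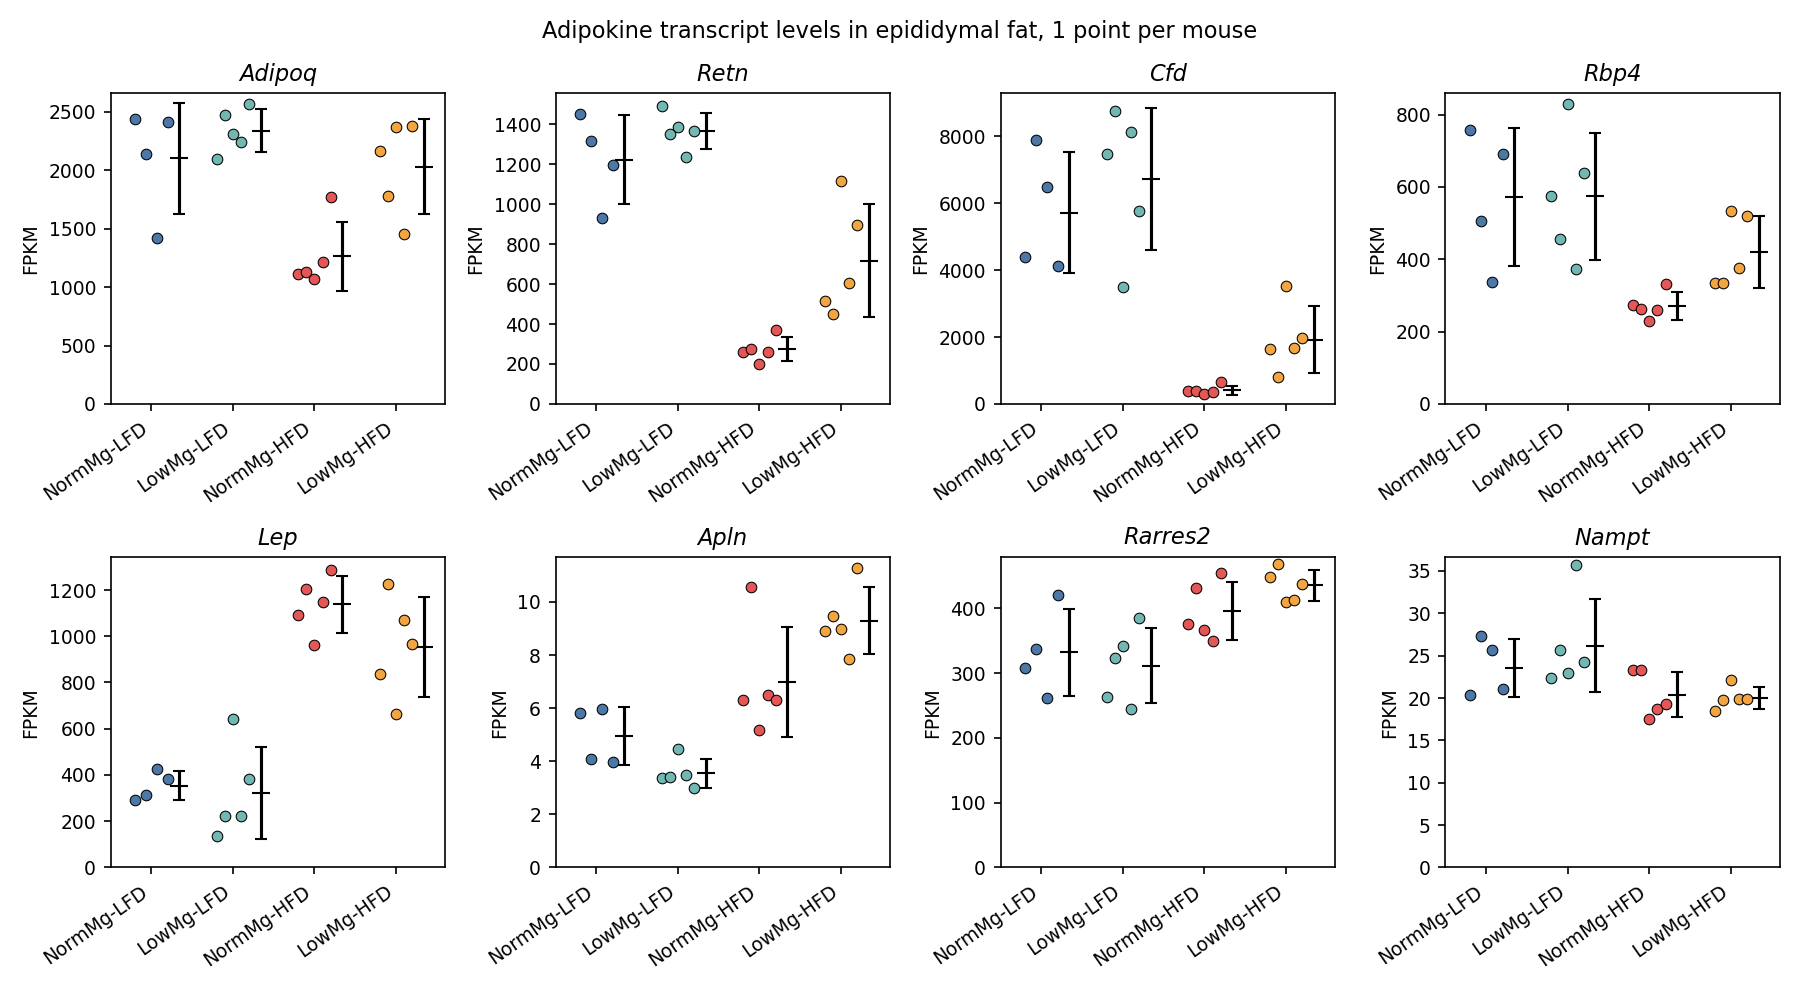
FPKM (y axis, from 0) of the 8 adipokines in the 4 diet groups (x axis), 1 panel per gene, 1 point per mouse, with the group mean and SD as a bar to the right of the points. Adipoq, Retn, Cfd and Rbp4 have their lowest mean on the NormMg-HFD, Lep separates high-fat from low-fat mice, and Apln and Rarres2 have their highest mean on the LowMg-HFD.

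The effect of Mg2+ on the high-fat diet was tested first. In the study, LowMg-HFD mice weighed less than NormMg-HFD mice and had less epididymal fat and serum leptin. No difference in serum adiponectin was observed between these groups. Effects of Mg2+ and of lower weight cannot be told apart in this comparison, a limit that the study also names. Cfd, Retn and Adipoq rose in LowMg-HFD mice compared with NormMg-HFD mice, and no member fell. Cfd rose 4.35-fold (log2 difference 2.12 ± 0.32 SE, adjusted p = 0.00178), the second largest rise among 8336 genes tested. Retn rose 2.51-fold (1.33 ± 0.21 SE, adjusted p = 0.00178) and Adipoq rose 1.61-fold (0.69 ± 0.17 SE, adjusted p = 0.00872). Differences are on the log2(FPKM + 1) scale, which understates the change of low genes. The p values are two-sided, come from limma and carry a Benjamini-Hochberg adjustment for all genes tested, with a threshold of 0.05. In these terms 3 of 8 members passed the test, all of them higher, where 18.5% of all genes passed and 5.58% were higher. Of the genes that passed, 465 of 1542 were higher, against 649 of 1498 after centring mice on their median and 786 of 1664 after quantile normalization, and against 66 of 3758 after centring on adipocyte markers. The median difference of the members was 0.50 and that of all genes was -0.04.

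The other 5 members did not pass the test on the high-fat diet. Rbp4 had a log2 difference of 0.61 ± 0.22 SE (adjusted p = 0.0632) and its groups did not overlap, which was so for 3 of the members (Cfd, Retn and Rbp4) and for 12.8% of all genes. For Apln the difference was 0.39 ± 0.17 SE (adjusted p = 0.102). Rarres2 differed by 0.14 (95% interval -0.13 to 0.41) and Nampt by -0.02 (95% interval -0.27 to 0.24). Lep differed by -0.28, with a 95% interval of -0.87 to 0.31 and an adjusted p of 0.524, a range that runs from a fall to a small rise.

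Cell markers of the tissue also differed between the LowMg-HFD and NormMg-HFD mice. Of 14 macrophage markers, 13 were lower on the LowMg-HFD than on the NormMg-HFD, with a summed level of 879.97 to 2240.3 FPKM against 2482 to 3989 FPKM and none at 0. Of 11 adipocyte markers tested, 5 were higher, with a summed level of 19160.3 to 23471 FPKM against 17260.4 to 21353 FPKM. With each mouse centred on its adipocyte markers, the differences were 1.75 for Cfd (adjusted p = 0.000515), 0.95 for Retn (adjusted p = 0.000583) and 0.31 for Adipoq (adjusted p = 0.0466), and Lep was at -0.65 without passing (adjusted p = 0.0777). This centring shifts every gene by the same amount, and the median of all genes moved to -0.42. Mesothelial markers, from 8 genes of the tissue surface with none at 0, summed to 21.9 to 109 FPKM on the LowMg-HFD, highest in replicate 4, and to 12.5 to 27.1 FPKM on the NormMg-HFD. The part of macrophages and mesothelial cells in these differences was not tested.

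On the low-fat diet, lower Mg2+ was followed by no change in a member that passed the test. The count was 0 of 8 by limma, as for all genes (0%), and at an unadjusted p under 0.05 it was 1 of 8, Apln, against 6.56% of all genes. Apln was at a mean of 3.55 ± 0.554 FPKM (SD, n = 5) on the LowMg-LFD and 4.95 ± 1.08 FPKM (SD, n = 4) on the NormMg-LFD, with 4 LowMg-LFD mice below every NormMg-LFD mouse and an adjusted p of 0.753 in limma. The 95% intervals were -0.51 to 0.94 for Cfd, -0.28 to 0.63 for Retn and -0.19 to 0.56 for Adipoq. No member was without overlap between the 2 groups, against 1.79% of all genes. In the 17 mice without the libraries with pancreas or epididymis genes the count was also 0 of 8.

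Whether Mg2+ acted differently on the 2 diets was tested by the interaction. For Cfd the effect of Mg2+ on the high-fat diet exceeded that on the low-fat diet by 1.91 on the log2 scale (0.47 SE, 95% interval 0.92 to 2.90, adjusted p = 0.0516), and for Retn by 1.15 (0.30 SE, 95% interval 0.53 to 1.78, adjusted p = 0.0551). Both fell just short of the threshold, and 0 of 8 members passed where 1.25% of all genes did, with 3 members (Cfd, Retn and Apln) at an unadjusted p under 0.05 against 20.4% of all genes. The calls depended on single mice. Without NormMg-HFD replicate 5, LowMg-HFD replicate 1 or LowMg-HFD replicate 2, Cfd (adjusted p = 0.0274, 0.0345 and 0.0192) and Retn (adjusted p = 0.0322, 0.0256 and 0.0224) passed. Cfd also passed without LowMg-LFD replicate 1 (adjusted p = 0.0459), and in the 17 mice neither passed (adjusted p = 0.120 for Cfd and 0.146 for Retn).

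**Figure D3:**
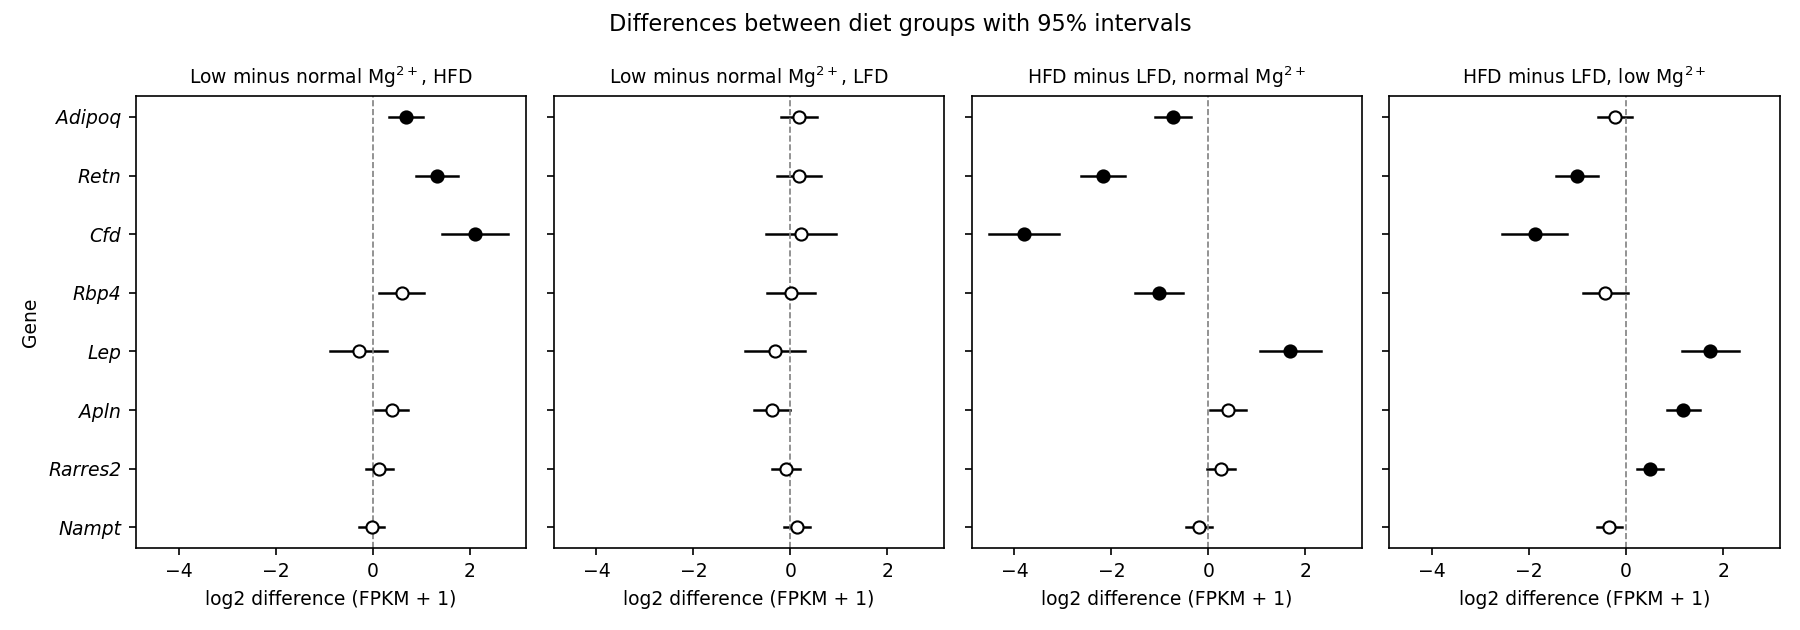
Log2 differences of FPKM + 1 (x axis) of the 8 adipokines (y axis) in 4 comparisons between diet groups, with 95% intervals as lines and genes with an adjusted p under 0.05 as filled points. Filled points are 3 for Mg2+ on the HFD, 0 for Mg2+ on the LFD and 5 for fat at each Mg2+ level.

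Fat at normal Mg2+ changed 5 of the 8 members, where 37.4% of all genes passed the test. Cfd fell by 3.80 on the log2 scale (0.34 SE, adjusted p = 1.36e-06), so that the NormMg-HFD level was 13.9-fold below the NormMg-LFD level, the second largest fall of all genes tested. Retn fell by 2.16 (0.22 SE, adjusted p = 1.36e-06), Rbp4 by 1.02 (0.24 SE, adjusted p = 0.00209) and Adipoq by 0.73 (0.18 SE, adjusted p = 0.00332). Lep rose 3.23-fold (1.69 ± 0.30 SE, adjusted p = 0.000190). The groups of Cfd, Retn, Rbp4 and Lep did not overlap, as for 32.1% of all genes. The members' median difference was -0.46 beside 0.07 for all genes.

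Apln differed by 0.41 (adjusted p = 0.0765), Rarres2 by 0.27 (adjusted p = 0.134) and Nampt by -0.20 (adjusted p = 0.245) in this comparison. The 5 calls were also made in the 17 mice, where Cfd fell by 3.62, Retn by 2.12, Rbp4 by 1.05 and Adipoq by 0.71, and Lep differed by 1.64. Centring on adipocyte markers gave -0.38 for Adipoq (adjusted p = 0.0220) with the median of all genes at 0.42. On the NormMg-HFD 13 of 14 macrophage markers were higher than on the NormMg-LFD, where they summed to 737 to 892 FPKM, and 5 of 11 adipocyte markers were lower and 1 was higher. Mesothelial markers summed to 44.2 to 123 FPKM on the NormMg-LFD, above every NormMg-HFD mouse, and the 1 of them tested was lower on the NormMg-HFD (-1.86). The part of these cells in the differences was not tested.

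Fat at low Mg2+ also changed 5 members, against 15.9% of all genes. The interaction, which tests whether the effect of fat differs between the Mg2+ levels, passed for none of the members by limma, also where a member passed at 1 Mg2+ level alone (adjusted p = 0.255 for Adipoq, 0.317 for Rbp4, 0.0840 for Apln and 0.518 for Rarres2). Lep rose 3.32-fold (1.73 ± 0.28 SE, adjusted p = 0.000869), Apln 2.26-fold (1.18 ± 0.17 SE, adjusted p = 0.000403) and Rarres2 1.41-fold (0.50 ± 0.13 SE, adjusted p = 0.0126). Cfd fell by 1.89 (0.32 SE, adjusted p = 0.00126) and Retn by 1.01 (0.21 SE, adjusted p = 0.00303). Adipoq differed by -0.23 (95% interval -0.58 to 0.13) and Rbp4 by -0.43 (95% interval -0.89 to 0.04). Nampt was lower in all 5 LowMg-HFD mice than in any LowMg-LFD mouse without passing the test (-0.35, adjusted p = 0.0569), and 5 of 8 members were without overlap against 9.30% of all genes. With Apln admitted by a filter at FPKM 1, its adjusted p was 0.000548.

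The 5 calls at low Mg2+ were also made in the 17 mice, with the largest change of adjusted p at Rarres2 (0.0414). When each mouse was centred on its median, Rarres2 did not pass (0.39, adjusted p = 0.0785) and Nampt did (-0.46, adjusted p = 0.0112). Here 8 of 14 macrophage markers were higher on the LowMg-HFD, and 1 of 11 adipocyte markers was lower.

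The LowMg-HFD mice were last compared with the NormMg-LFD mice, which share neither the Mg2+ level nor the fat level. Adipoq was at 2030.1 ± 406 FPKM (SD, n = 5) on the LowMg-HFD and 2104 ± 474 FPKM (SD, n = 4) on the NormMg-LFD, a log2 difference of -0.04 (95% interval -0.42 to 0.33). Lep (1.41 ± 0.30 SE, adjusted p = 0.0100) and Apln (0.80 ± 0.18 SE, adjusted p = 0.0120) were higher and Cfd (-1.67 ± 0.34 SE, adjusted p = 0.00929) and Retn (-0.84 ± 0.22 SE, adjusted p = 0.0266) lower, 4 of 8 members where 6.93% of all genes passed. Apln entered this test through its level in the LowMg-HFD mice, and with the filter at FPKM 1 its adjusted p was 0.0145. The groups of Lep, Apln and Cfd did not overlap, against 8.61% of all genes. Of 14 macrophage markers 6 were higher on the LowMg-HFD (3 in the 17 mice), with a summed level of 879.97 to 2240.3 FPKM against 737 to 892 FPKM, and of 11 adipocyte markers none passed. The part of macrophages in these differences was not tested. In the 17 mice only Lep (adjusted p = 0.0448) and Cfd (adjusted p = 0.0450) passed, with Apln at 0.0578 and Retn at 0.0937. The call of Retn was also lost without NormMg-LFD replicates 2, 3 or 5 or LowMg-HFD replicates 1 or 2, with adjusted p of 0.0905, 0.0846, 0.0522, 0.0789 and 0.0863.

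The order of the group means can be read from these tests. For Cfd and Retn the order was LowMg-LFD, NormMg-LFD, LowMg-HFD and NormMg-HFD, in which the 2 low-fat groups did not pass the test and each further step did. The step from NormMg-LFD to LowMg-HFD was the least stable, since in limma Retn passed it in 11 of 20 alternatives (adjusted p up to 0.103) and Cfd in 19 of 20 (adjusted p = 0.0529 with only the groups compared). Adipoq had the same order, and only its last step passed. Rbp4 also had this order, with no single step past the threshold. For Lep the order was NormMg-HFD, LowMg-HFD, NormMg-LFD and LowMg-LFD, with a step past the threshold between LowMg-HFD and NormMg-LFD alone. Comparisons that share a diet group, such as Mg2+ on the HFD and fat at normal Mg2+, which share the NormMg-HFD mice, are not independent.

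The ratio of Lep to Adipoq within a mouse does not depend on how mice are scaled. It was 0.120, 0.146, 0.300 and 0.158 on the NormMg-LFD and 0.0657, 0.0904, 0.278, 0.0998 and 0.149 on the LowMg-LFD. On the NormMg-HFD it was 0.976, 1.07, 0.896, 0.943 and 0.723, and on the LowMg-HFD it was 0.385, 0.690, 0.279, 0.739 and 0.405. All high-fat mice but LowMg-HFD replicate 3 (0.279) lay above the low-fat diet range, which ended at 0.300, and 4 of 5 LowMg-HFD mice had a lower ratio than any mouse on the NormMg-HFD.

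By exact two-sided permutation tests of the log2 ratio, adjusted over 4 comparisons, fat raised the ratio at normal Mg2+ (by 2.42, exact p = 0.00794, adjusted p = 0.0159) and at low Mg2+ (by 1.96, exact p = 0.00794, adjusted p = 0.0159). That exact p is the smallest these group sizes allow. On the HFD the ratio was lower in LowMg-HFD mice (-0.97, exact p = 0.0159, adjusted p = 0.0212, n = 5 and 5), and on the LFD the difference of -0.50 did not pass (exact p = 0.317). In the 17 mice the 3 calls were also made (adjusted p = 0.0238 each, exact permutation tests). As differences of medians none of the 3 passed (adjusted p = 0.0635 each, exact permutation tests). Without any 1 of NormMg-HFD replicates 1 to 4, the differences kept about their size (-0.97 to -0.91 for Mg2+ on the HFD and 2.37 to 2.43 for fat at normal Mg2+), but with an adjusted p of 0.0529 by exact permutation they did not pass. For fat at normal Mg2+ the exact p was then 0.0286, the smallest that 4 against 4 mice allow.

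**Figure D4:**
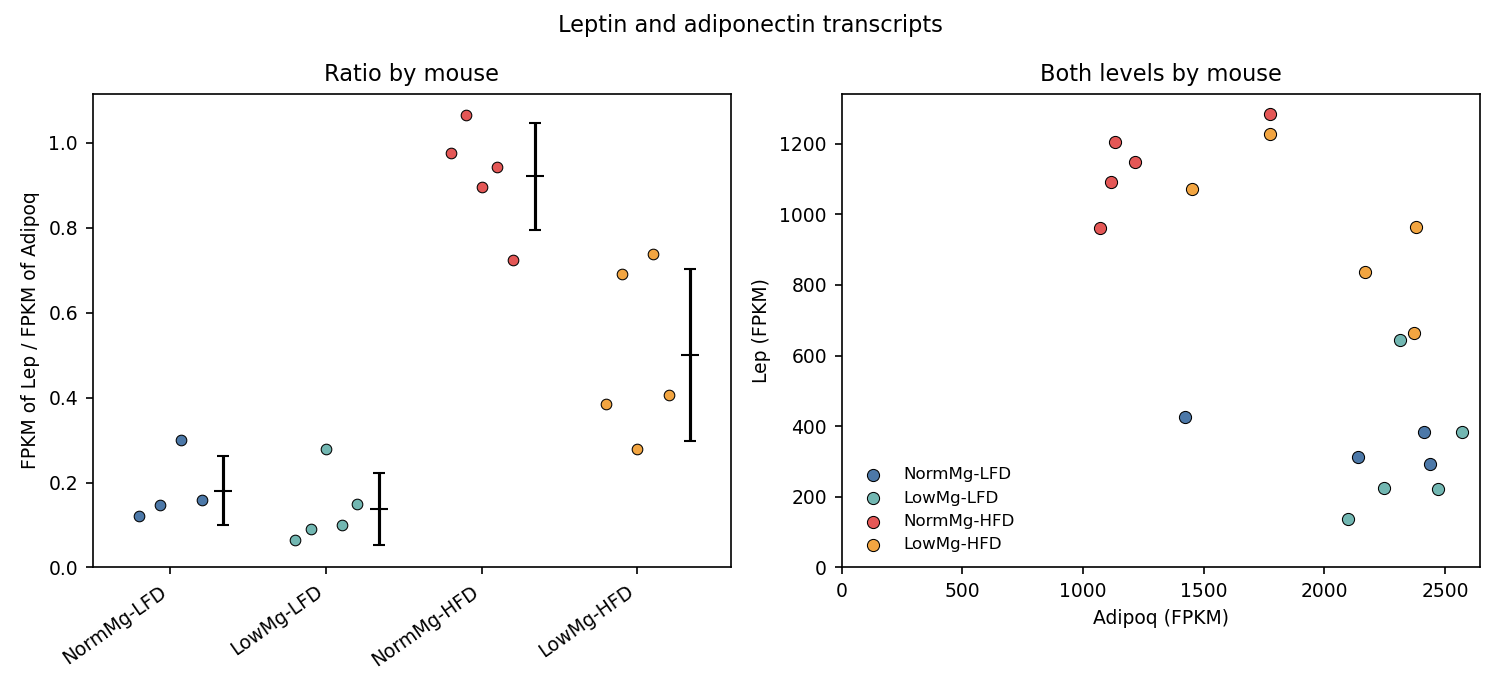
Left, the ratio of the FPKM of Lep to that of Adipoq (y axis, from 0) in the 4 diet groups, 1 point per mouse, with mean and SD as bars to the right. Right, Lep (y axis, FPKM) against Adipoq (x axis, FPKM) in the same mice. The mean ratio is 0.921 on the NormMg-HFD and 0.50 on the LowMg-HFD, against 0.181 and 0.137 on the low-fat diets.

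Relations between members were also read within groups. After the group mean was subtracted, Pearson's r over the 19 mice was 0.70 between Retn and Rbp4, 0.67 between Adipoq and Retn, 0.64 between Adipoq and Rbp4 and 0.62 between Retn and Cfd. In the 17 mice these were 0.74, 0.66, 0.69 and 0.66. Rarres2 had an r of 0.52 with Adipoq and 0.53 with Rbp4, Lep and Cfd had an r of -0.54, and of all 28 pairs 16 were positive. Mice of a group share their diet, and the values of a pair come from the same library, so that these are descriptions. With the mean of 11 adipocyte markers, r was 0.81 for Adipoq, 0.62 for Rbp4, 0.59 for Retn, 0.53 for Rarres2 and 0.16 for Cfd, and with the mean of 14 macrophage markers it was -0.68 for Retn, -0.60 for Rbp4, -0.31 for Cfd and -0.15 for Adipoq.

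**Figure D5:**
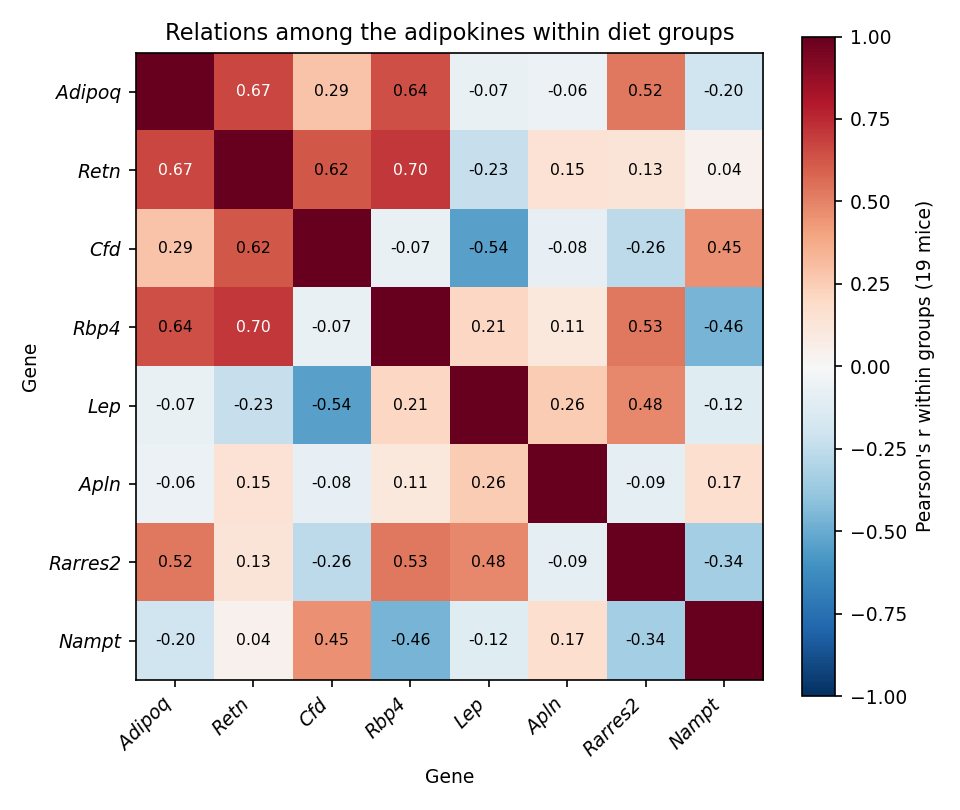
Pearson's r between the log2(FPKM + 1) values of each pair of the 8 adipokines (both axes) over 19 mice after the group means were subtracted, in colour from -1 to 1 and as numbers. Adipoq, Retn and Rbp4 have r from 0.64 to 0.70 with each other, Cfd has 0.62 with Retn, and Rarres2 has 0.52 with Adipoq and 0.53 with Rbp4.

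Over all 19 mice, group differences included, the genes most like a member were read by Pearson's r among all genes tested. Retn was most like Phyh (0.99), Gsta3 (0.98) and Aldh6a1 (0.98), and Cfd was most like Aldh6a1 (0.98), Iars2 (0.97) and Sfxn1 (0.97), so that Aldh6a1, an enzyme of valine breakdown, was near both. Adipoq was most like Eif4ebp1 (0.96), Chst1 (0.95) and Lipe (0.95), which encodes hormone-sensitive lipase. For Lep, Lpgat1 and Hn1l (each 0.97) were among the genes most like it. For Rbp4 these were Mut, Myl1 and Orm3 (each 0.93), and for Rarres2 Srpx2, Anxa6 and Lrrc61 (0.89 to 0.90). Nampt (Rnpc3, Chd6 and Baz1b, 0.83 to 0.89) and Apln (Fscn1, Tnfaip1 and Zc2hc1a, 0.84 to 0.88) had no neighbour over 0.89.

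Of 11 receptor genes of these hormones, 7 were tested, and 2 passed for Mg2+ on the HFD, where 18.5% of all genes did. Lower Mg2+ raised Cdh13 (0.72, adjusted p = 0.00625), the T-cadherin that binds adiponectin, and lowered Cap1 (-0.50, adjusted p = 0.00404), which binds resistin. Neither adiponectin receptor passed (Adipor1 -0.11, Adipor2 0.42). Fat at normal Mg2+ raised 3, Cap1 (0.99), Tlr4 (0.67) and the apelin receptor Aplnr (0.54). It lowered 1, the chemerin receptor Cmklr1 (-0.65), where 37.4% of all genes passed. Fat at low Mg2+ raised 2 of the 7, Aplnr (0.72, adjusted p = 0.0117) and Cap1 (0.57), where 15.9% of all genes passed.

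Genes that act with the members were read from fixed lists. Of 5 tested genes of leptin receptor signalling, lower Mg2+ on the HFD lowered 1, a share near the 18.5% of all genes that passed: Ptpn1 (-0.53, adjusted p = 0.0310), a phosphatase that restrains the leptin receptor, which fat at normal Mg2+ raised (1.04). Adiponectin is folded in the endoplasmic reticulum, and of 8 tested genes of its folding and secretion 4 fell on the LowMg-HFD, where 18.5% of all genes passed and Adipoq itself rose: Hspa5 (-0.54), Pdia3 (-0.49), Erp44 (-0.44) and P4hb (-0.39). Fat at normal Mg2+ raised 6 of the 8, where 37.4% of all genes passed, among them Hspa5 (0.83), Clstn3 (0.82), Pdia3 (0.71), Erp44 (0.63) and P4hb (0.55), and lowered 1, Gstk1 (-0.43). The list medians in these comparisons were -0.34 and 0.59, beside -0.04 and 0.07 for all genes.

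Cfd acts in the alternative complement pathway. Of 8 further genes of that pathway tested, lower Mg2+ on the HFD lowered 2, where 18.5% of all genes passed, the receptors C3ar1 (-1.71, adjusted p = 0.00267) and C5ar1 (-1.48, adjusted p = 0.00178). Fat at normal Mg2+ raised 5, where 37.4% of all genes passed, C3ar1 (3.11), C5ar1 (2.76), Cfb (0.89), Cfp (0.60) and C3 (0.55), while Cfd fell. Of 14 macrophage markers, 13 were lower in the first of these comparisons and 13 higher in the second. The part of macrophages in these differences was not tested. Cfb, the substrate that factor D cleaves, was also higher with fat at low Mg2+ (0.88, adjusted p = 0.000869). Of 5 tested NAD salvage genes and 5 tested retinoid genes none passed for Mg2+ on the HFD, and with fat at normal Mg2+ Parp1 (0.33) and Dhrs3 (0.81) were higher and Aldh1a1 (-1.12) lower.

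Factors that control adipokine genes were split. On the HFD lower Mg2+ raised Klf15 (0.55), Srebf1 (0.50) and Rxra (0.35) and lowered Cebpb (-0.57) and Hif1a (-0.45), 5 of 11 tested where 18.5% of all genes passed, although Rxra was at -0.02 after centring on adipocyte markers. Fat at normal Mg2+ moved Klf15 (-1.38), Srebf1 (-0.98), Cebpb (1.15) and Hif1a (0.70) the other way and lowered Pparg (-0.66), the master regulator of adipocytes, in a comparison in which 37.4% of all genes passed. The 2 comparisons share the NormMg-HFD mice.

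A further 25 tested adipokines were read beside the 8. Lower Mg2+ on the HFD raised 4 and lowered 9 of them, where 18.5% of all genes passed, with a median of -0.05 (0.012 after centring mice on their median). Agt, the precursor of angiotensin, rose by 2.03 (0.32 SE, adjusted p = 0.00178), nearly the size of the rise of Cfd, from a mean of 19 ± 6.20 FPKM to 83.4 ± 30.5 FPKM (SD, n = 5 each), and Retnla rose by 1.05 (adjusted p = 0.00647). The largest falls were those of Saa3 (-1.93), an acute phase protein, Metrnl (-1.36) and the chemokine Ccl2 (-1.14). Fat at normal Mg2+ raised 14 and lowered 4, where 37.4% of all genes passed, with Saa3 (4.00), Ccl2 (3.19), Metrnl (2.19) and Wisp2 (1.69) higher and Agt (-2.58) lower. Fat at low Mg2+ raised 11, most of all Sfrp5 (3.02), Wisp2 (2.15) and Ccl2 (1.93), and lowered 2, where 15.9% of all genes passed.

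In the 17 mice without the libraries with pancreas or epididymis genes, the 8 lists of other adipokines, receptors and partners, with 74 genes tested, had 38 calls for fat at normal Mg2+ against 46 in all mice, and 23 for fat at low Mg2+ in both, of which 22 were shared. Of the genes named here, Aplnr, Cmklr1, Clstn3, Cfp and Parp1 were the ones that no longer passed for fat at normal Mg2+ (adjusted p of 0.112, 0.0968, 0.0700, 0.0708 and 0.222 by limma), and no call changed its direction.

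The interaction passed for 104 of all genes and, in the lists, for Agt (1.93, adjusted p = 0.0495), Igf1 (-0.70, adjusted p = 0.0343), C5ar1 (-1.65, adjusted p = 0.0447), the macrophage markers Adgre1 (-1.72, adjusted p = 0.0447) and C1qb (-1.34, adjusted p = 0.0495) and the stromal gene Lum (-1.41, adjusted p = 0.0343). These adjusted p lay close to the threshold, and the calls were lost without some single mice. In the 17 mice the differences kept their direction (Agt 1.98, Igf1 -0.71, C5ar1 -1.65, Adgre1 -1.61, C1qb -1.17 and Lum -1.40). Their adjusted p by limma was then 0.0879 to 0.128. The count over all genes was 0 without any 1 of NormMg-LFD replicates 2 and 3, NormMg-HFD replicates 1, 3 and 4, LowMg-HFD replicates 3 and 5 and LowMg-LFD replicate 5, and it was 476 without LowMg-HFD replicate 2. In the 17 mice it was 1, and after quantile normalization 347.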

How the data were processed

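The authors sequenced RNA from eWAT in 1 library for each mouse. The authors' processing notes name HISAT, Bowtie2 and RSEM 1.2.31 with GRCm38, and the deposited values are FPKM, which carry no count per gene, so that counting error of a single value is unknown. Read numbers and the percent of reads mapped were deposited by the authors as well. Of 24250 lines, 12 were no gene and 1 gene had a cell that is not a number, and 26 symbols turned into dates were restored. Mice were grouped by their labels. The study's methods describe several mice to a cage, and the labels give no cage, so that mice of a group may have shared one and p values measure only the spread between these mice.

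After log2(FPKM + 1), the 8336 genes whose mean in some group was over 8 FPKM, and whose values were over 8 in 4 or more mice of that group, were fitted in limma 3.58.1 (R 4.3.3, intensity trend, 4 groups in 1 fit, 6 contrasts, Benjamini-Hochberg over all genes tested). The log2 ratio of Lep to Adipoq was compared by exact permutation tests (Python 3.11.15). The fit was tested on simulated data. Members and lists were chosen with earlier results of these data known. Genes named are the 8 members, at most 5 genes of a list that passed in a comparison, by size, and the 3 genes most like each member by Pearson's r, of which 1 is not reported here. Adipor1, Adipor2 and Gstk1 were added after their values were seen. Some lists have no count above for Mg2+ on the HFD, where 18.5% of all genes passed and 5.58% were higher. Of these, 2 of 10 stromal progenitor markers were lower and 1 of 8 endothelial markers was higher. Mesothelial and exocrine pancreas markers had 0 of 1 each, and epididymis markers had no gene tested.

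Alternatives were another pseudocount, filters, scalings, fits without the trend, with a replicate block or of the groups compared alone, each mouse left out, and 18 mice without LowMg-HFD replicate 4. The fit of 17 mice was chosen after the data were seen. Promoters of 7 of the 8 members were matched by symbol in RefSeq (GRCm38.p6), and gene positions are from GENCODE on GRCm38. Figures were drawn with matplotlib 3.10.9.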

Additional observations from a re-analysis of the deposited data

Results flagged for a closer look

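Adipoq in NormMg-HFD replicate 5 stood apart from the 4 other mice of its group, at 1776 FPKM against 1072 to 1217 FPKM, and on the log2(FPKM + 1) scale its gap to the nearest mouse was 0.748 of the whole range of the group, as Dixon's test measures it. It was 1 of 36 groups of values tested in this way, and chance flags about 1 in 20. Without this mouse the difference of Adipoq between LowMg-HFD and NormMg-HFD was 0.82 on the log2 scale.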

How the results depend on the processing

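The member counts were within 1.5 times those reported in each alternative except these. After quantile normalization 5 members passed for Mg2+ on the HFD (Rbp4, adjusted p = 0.0270, and Apln, adjusted p = 0.0236, by limma, were added). Between LowMg-HFD and NormMg-LFD 2 passed with only the groups compared, and 2 in the 17 mice, a setting chosen after seeing the data. For the interaction 1 passed with each mouse centred on its median (Cfd, adjusted p = 0.0451 in limma), 2 after quantile normalization, and 0 to 2 with 1 mouse left out. Leaving out 1 mouse gave 3 to 4 members for Mg2+ on the HFD, 0 on the LFD, 5 to 6 for fat at either Mg2+ level and 3 to 4 between LowMg-HFD and NormMg-LFD. In limma Rbp4 passed for Mg2+ on the HFD without NormMg-HFD replicate 5 (adjusted p = 0.0495) and with only the groups compared (adjusted p = 0.0226), and Apln without NormMg-HFD replicate 2 (adjusted p = 0.0208). Centred on adipocyte markers, Rarres2 (0.61) and Apln (0.75) also passed for fat at normal Mg2+. The log2 ratio of Lep to Adipoq did not pass as a difference of medians (-1.22 for Mg2+ on the HFD, 2.63 and 2.02 for fat at normal and low Mg2+, adjusted p = 0.0635 each by exact permutation). With a replicate block it was -0.97, 2.40 and 1.96 (adjusted p = 0.125, 0.167 and 0.125, exact permutation), where few pairs limit the p. With 1 mouse left out it ranged from -1.13 to -0.78 and from 2.26 to 2.70 for the first 2, with adjusted p up to 0.0529 (exact permutation), and without any of NormMg-HFD replicates 1 to 4 both were at 0.0529 with fewer arrangements.

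Values that changed sign did so below the threshold. For Mg2+ on the HFD, Nampt was 0.039 with each mouse centred on its median, 0.034 after quantile normalization and -0.068 to 0.030 with 1 mouse left out, and Rarres2 was -0.23 with adipocyte centring. On the LFD, Cfd was -0.10 after quantile normalization, Rbp4 was -0.090 with adipocyte centring and -0.22 to 0.17 with 1 mouse left out, and Rarres2 was 0.0071 in the 17 mice and -0.20 to 0.031 with 1 left out. Nampt for fat at normal Mg2+ was 0.15 with adipocyte centring. Adipoq between LowMg-HFD and NormMg-LFD was 0.070 in the 18 mice and -0.22 to 0.070 with 1 left out. For the interaction, Lep was -0.23 with adipocyte centring, -0.062 with the replicate block, -0.011 in the 18 mice and -0.21 to 0.34 with 1 left out, and Rarres2 was -0.034 with adipocyte centring. The cause of these changes was not tested.

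Mice with the same replicate number had correlations of their deviations from -0.18 to 0.34. These values cannot show whether the numbers mark a shared cage or day, and the labels do not say. The main fit used no replicate block. With the replicate block in limma, Rbp4 passed for Mg2+ on the HFD (adjusted p = 0.0389), Rarres2 passed for fat at normal Mg2+ (0.0418) and between LowMg-HFD and NormMg-LFD (0.0311), and Retn was at 0.0501 in the last. FPKM carry no counts, so the depth behind low values such as those of Apln is unknown.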
